A study of Homo sapiens with 6 samples.

Results

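The genes described here are 3 matrix metalloproteases (MMP1, MMP14 and MMP2), 3 tissue inhibitors of metalloproteases (TIMP1, TIMP2 and TIMP3) and 3 genes of plasminogen activation (the urokinase receptor PLAUR, urokinase PLAU and tissue plasminogen activator PLAT). They were chosen by symbol, with earlier results of these data known. All 22 probe sets annotated with one of these 9 symbols alone were taken from the 54675 on the array. The cells were WM-266.4, a human metastatic melanoma line, on Affymetrix HG-U133 Plus 2 arrays. The siPIR cells received 200 pmol of a mixture of 4 siRNA duplexes against PIR, the gene of the iron-binding nuclear protein pirin. The siCTR cells received the same amount of a mixture of 4 non-targeting duplexes, and the NO cells went through transfection with the lipid reagent and no oligonucleotide. Per the labels the PIR mixture was of the siGENOME line and the control mixture of the on-target plus line, so the 2 differ in product as well as in target. All were seeded 24 h before transfection and harvested 72 h after it. The RNA of each group was an equal mixture of 3 extractions, hybridised to 2 arrays, so each group is 1 RNA pool (n = 1) of 1 cell line. The spread between the 2 arrays of a pool is hybridisation error only, and no p-value for the treatments can be given from these pools.

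Matrix metalloproteases are zinc endopeptidases that are made as inactive precursors and cleave collagens and other matrix proteins. TIMPs bind their active sites and block them. Urokinase, held at the cell surface by its receptor, turns plasminogen into plasmin, which degrades fibrin and matrix proteins and can activate metalloprotease precursors. In melanoma both systems are known for their part in pericellular matrix breakdown and invasion.

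The labels and cells were checked first. PIR gave signals of 392 and 382 in siPIR cells, 13544 and 13180 in siCTR cells, and 13990 and 14153 in NO cells. Array medians lay between 64.2 and 74.8 signal units, and duplicate arrays correlated at r = 0.992 to 0.994 over the 8271 bright genes, those with a pool mean above 458.4. All 7 of the melanocytic markers with a probe set were measured, and their summed signal was 101359 to 103249 on siPIR arrays, 95250 to 100933 on siCTR arrays and 97479 to 103241 on NO arrays. Against siCTR and NO, MLANA (0.36 and 0.16), TYRP1 (0.40 and 0.22) and SOX10 (0.32 and 0.55) were higher in siPIR cells with arrays apart, and PMEL was lower (-0.18 and -0.26). For TYR, S100B and MITF the siPIR arrays overlapped those of siCTR. Of 8 fibroblast markers 4 were measured, and COL3A1, PDGFRB, DCN and THY1 had a mean below 70.2, the cut-off for a measured gene, in all 3 pools. The summed signal of the 8 markers was 28961 to 30725 on siPIR arrays, 17875 to 19273 on siCTR arrays and 15860 to 15917 on NO arrays, nearly all of it from COL1A2 and FAP. Of the leukocyte markers CD14 alone was measured, PTPRC, CD3E and LYZ being below the cut-off, and the summed signal was 339 to 363 on siPIR arrays, 185 to 203 on siCTR arrays and 164 to 199 on NO arrays. No marker was at 0, and the part of these differences in the results below was not tested. In bulk RNA, fewer cells of a kind and less RNA per cell cannot be told apart.

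Of the 9 genes, 8 were measured, meaning that the mean of at least 1 pool exceeded 70.2, the median of all values on the 6 arrays. PLAU was the exception. A gene was represented by its brightest probe set and was called when its pool means differed by at least 1 on the log2 scale (2-fold) and both arrays of one pool lay beyond both of the other. Values were taken as log2(signal + 5.4), and every log2 difference below is on that scale. MMP1, PLAUR and MMP14 were called higher in the siPIR pool against each control, and 0 of the 8 were called lower. Among all 13053 measured genes, 1.47% passed as higher than both controls and 3.2% as lower, and among the bright genes, to which all 8 belong, 0.907% were called higher. The calls against each control separately were the same 3 genes, where 3.66% of genes were called higher than siCTR (4.21% lower) and 3.6% higher than NO (5.4% lower). The siPIR pool is shared by both comparisons, so the second call does not repeat the first independently. At the level of probe sets, 19 of 22 were measured and 7 were called higher than both controls, against 1.52% of all measured probe sets. The median difference of the 8 genes, in log2 units, was 0.43 against siCTR and 0.50 against NO, where that of all genes was 0.05 and 0.03. Because the genes were chosen with earlier results of these data known, the shares and medians of all genes give scale only and test no excess.

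**Figure D1:**
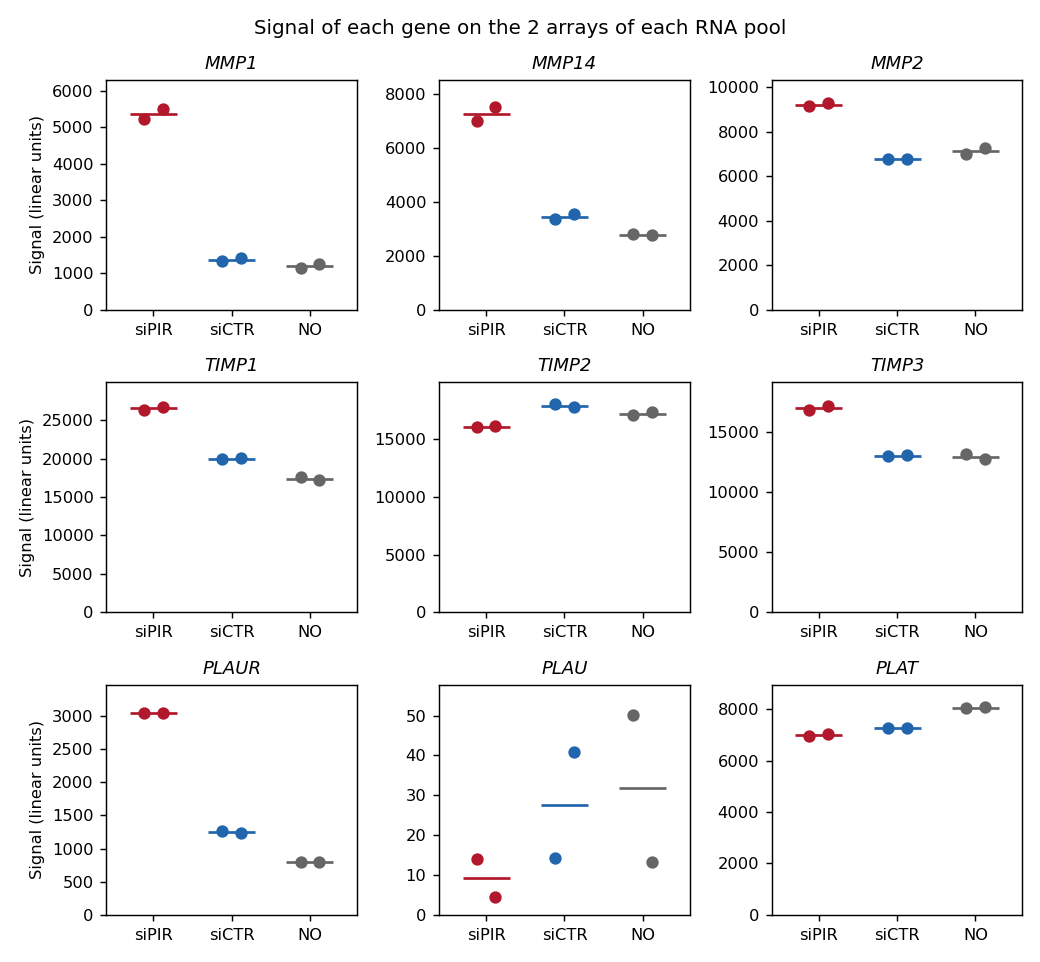
Signal in linear units (vertical axes, each from 0 and with its own range) on each array of the siPIR, siCTR and NO pools, for the brightest probe set of each of the 9 genes. Points are arrays and lines are pool means. MMP1, MMP14 and PLAUR stand at more than 2-fold the control levels in siPIR cells, while PLAU stays at 50.2 or less on every array.

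MMP1, the interstitial collagenase that cleaves fibrillar collagen, had the greatest difference of the 9 genes. Its 1 probe set gave 5236 and 5509 signal units in siPIR cells, 1328 and 1428 in siCTR cells, and 1135 and 1267 in NO cells. The 2 siPIR arrays were far above the 4 control arrays, and the controls lay close together. The log2 difference was 1.96 against siCTR, with 1.87 to 2.05 as the range of the 4 array pairs, which is a 3.89-fold higher level. Against NO it was 2.16 (2.04 to 2.27), a 4.46-fold higher level. From the highest difference down it ranked 68 against siCTR and 37 against NO among the measured genes. Between the controls MMP1 was higher in siCTR than in NO by 0.20 (0.07 to 0.33).

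MMP14 encodes MT1-MMP, a membrane-anchored protease that cleaves collagen at the cell surface and activates the precursor of MMP2. Its brightest probe set (160020_at) gave 7010 and 7524 signal units in siPIR cells, 3362 and 3556 in siCTR cells, and 2799 and 2785 in NO cells. Every siPIR array was above every control array, and siCTR was above NO. The log2 difference was 1.07 against siCTR (0.98 to 1.16) and 1.38 against NO (1.32 to 1.43). All 4 probe sets of MMP14 were called higher than both controls, with differences of 1.05 to 1.22 against siCTR and 1.01 to 1.38 against NO. The least even was 217279_x_at, a probe set that can bind other transcripts, with array pairs from 0.79 to 1.30 against siCTR.

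MMP2, gelatinase A, is the substrate of MT1-MMP in that activation. Its signals (201069_at) were 9139 and 9259 in siPIR cells, 6767 and 6768 in siCTR cells, and 7013 and 7251 in NO cells. The siPIR arrays were above all control arrays, but the size was under 2-fold and MMP2 was not called. The log2 difference was 0.44 against siCTR (0.43 to 0.45) and 0.37 against NO (0.33 to 0.40). The other 2 probe sets of MMP2 were near the floor of the array: 1566678_at lay between 44.1 and 77.9 on all 6 arrays with overlapping siPIR and siCTR pools, and 1566677_at, between 2.5 and 56.1, was not measured.

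The inhibitors differed less than MMP1 and MMP14. TIMP1, a metalloprotease inhibitor, gave 26350 and 26719 signal units in siPIR cells, 19889 and 20105 in siCTR cells, and 17603 and 17181 in NO cells. The 3 pools did not overlap, with siPIR highest and NO lowest. The log2 difference was 0.41 against siCTR (0.39 to 0.43) and 0.61 against NO (0.58 to 0.64).

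TIMP3, the inhibitor that binds the extracellular matrix and also blocks ADAM proteases, was above both controls on all 4 of its probe sets and was called on none. Its brightest probe set (201150_s_at) gave 16799 and 17179 signal units in siPIR cells, 12980 and 13107 in siCTR cells, and 13136 and 12741 in NO cells. The siPIR arrays were above the control arrays, which overlapped each other. Here siPIR was above siCTR by 0.38 and above NO by 0.39 on the log2 scale. It was the smallest of the 4: the others gave 0.70 to 0.86 against siCTR and 0.65 to 0.73 against NO, so the level of difference for TIMP3 depends on the probe set read.

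TIMP2, which blocks metalloproteases and also takes part in the MT1-MMP complex that activates MMP2, had probe sets that disagreed in sign. The brightest (231579_s_at) gave 16011 and 16111 signal units in siPIR cells, 17992 and 17755 in siCTR cells, and 17034 and 17299 in NO cells. By this probe set siPIR was the lowest pool, with log2 differences of -0.15 against siCTR and -0.10 against NO. By 203167_at it was the highest pool, with 5115 and 5106 in siPIR cells, 4525 and 4618 in siCTR cells, and 3797 and 3834 in NO cells, and differences of 0.16 and 0.42. The third, 224560_at, gave -0.30 against siCTR and -0.06 against NO, and its siPIR and NO arrays overlapped. No direction for TIMP2 can be given from these 3 probe sets.

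**Figure D2:**
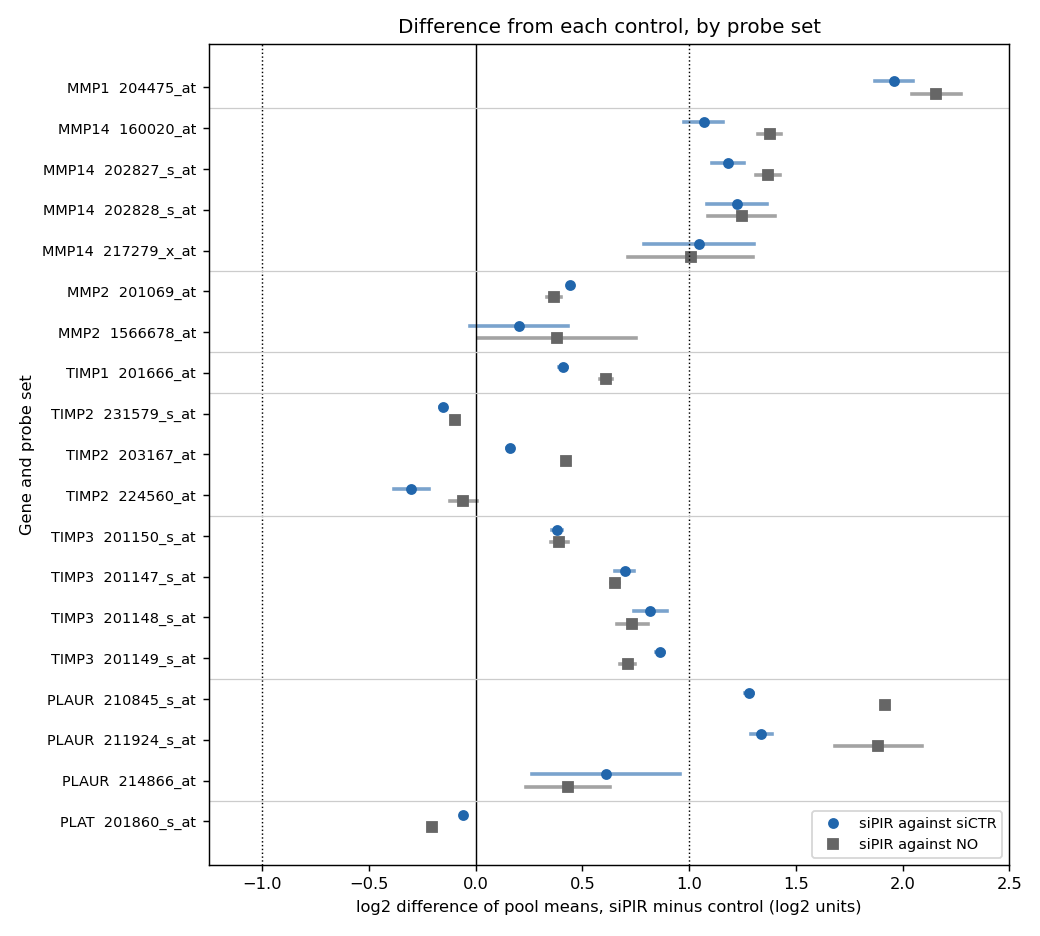
Log2 difference of pool means, siPIR minus each control (horizontal axis, log2 units), for the 19 measured probe sets, grouped by gene. Circles are against siCTR, squares against NO, bars span the 4 pairs of arrays and dotted lines mark 2-fold. All 4 MMP14 probe sets lie past 2-fold, 2 of 3 PLAUR probe sets do, and the 3 TIMP2 probe sets fall on both sides of 0.

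In the urokinase system the receptor was called and urokinase itself was not measured. PLAUR, which anchors urokinase at the cell surface through a lipid tail, gave 3046 and 3043 signal units on 210845_s_at in siPIR cells, 1265 and 1236 in siCTR cells, and 802 and 800.3 in NO cells. The 3 pools were apart from each other, in the order siPIR, siCTR, NO. The log2 difference was 1.28 against siCTR (1.26 to 1.30), a 2.43-fold higher level, and 1.92 against NO, a 3.78-fold higher level. Between the controls PLAUR was higher in siCTR than in NO by 0.64 (0.62 to 0.66), the largest control difference of the 8 genes. With its sign counted, this difference lay above that of 96.8% of measured genes, genes lower in siCTR included.

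The probe sets of PLAUR did not all show this. The second, 211924_s_at, gave differences of 1.34 against siCTR and 1.89 against NO. The third, 214866_at, gave 583 and 708 signal units in siPIR cells, 484 and 363 in siCTR cells, and 495 and 456 in NO cells. The siPIR arrays were still above the others, but the difference was 0.61 against siCTR (0.27 to 0.96) and 0.43 against NO (0.24 to 0.63), and the order of the controls was turned round. The call of PLAUR therefore rests on the 2 probe sets marked _s_at, which match several transcripts.

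PLAU, urokinase itself, was not above the cut-off on any array. Its 2 probe sets gave 13.9 and 4.5, and 3.3 and 10.5, in siPIR cells. In siCTR cells they gave 14.3 and 40.8, and 8.3 and 25.7, and in NO cells 50.2 and 13.3, and 8.2 and 5.0. On the first (205479_s_at) the siPIR arrays were just below the siCTR arrays, by -1.13 with array pairs from -2.22 to -0.03, and overlapped the NO arrays. On the second the siPIR arrays overlapped those of both controls. With every PLAU value below the cut-off, no direction is given for PLAU.

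PLAT, tissue plasminogen activator, was expressed well above the cut-off and differed little. Its 1 probe set gave 6946 and 7033 signal units in siPIR cells, 7278 and 7266 in siCTR cells, and 8047 and 8082 in NO cells. The pools did not overlap, in the reverse order of PLAUR, but the log2 difference was only -0.06 against siCTR (-0.07 to -0.05) and -0.21 against NO (-0.22 to -0.19).

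The order of the pools was compared across the genes. In 6 of the 8 measured genes both siPIR arrays were above all 4 control arrays, and in the other 2, TIMP2 and PLAT, both were below, for TIMP2 by its brightest probe set only. Over all measured genes 28.4% had siPIR above and 23.1% had siPIR below in this sense, so lying apart at any size is common in these pools. Among the 8271 bright genes, to which all 8 belong, 2809 had siPIR above and 2401 below. Between siCTR and NO, 0 of the 8 genes were called, where 0.996% of all genes were called higher and 2.4% lower in siCTR. Of the bright genes only 2 were called higher and 3 lower (0.0605% in all), so 0 of 8 is the usual result for genes this bright. The siCTR arrays were above both NO arrays in 5 of the 8 (MMP1, MMP14, TIMP1, TIMP2 and PLAUR) and below them in 2 (MMP2, whose sign turns to 0.05 after median-centring, and PLAT), against 28.1% and 24.9% of all genes, while those of TIMP3 overlapped. Among the 8271 bright genes the siCTR arrays were above in 2952 and below in 1970.

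**Figure D3:**
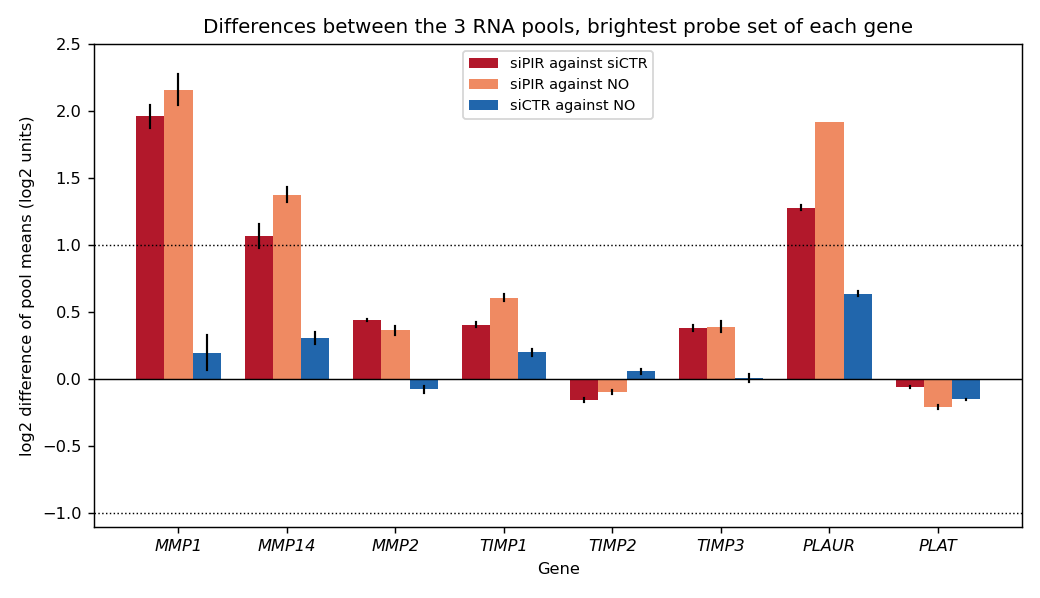
Log2 difference of pool means (vertical axis, log2 units) between each pair of pools for the 8 measured genes, by the brightest probe set of each. Bars start at 0, black lines span the 4 pairs of arrays and dotted lines mark 2-fold. For MMP1 the siPIR differences of 1.96 and 2.16 stand beside a control difference of 0.20, and for PLAUR 1.28 and 1.92 stand beside 0.64.

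The bright genes whose 2 differences lay nearest those of MMP1 (Euclidean distance over the differences against siCTR and NO, among 8270 genes and 3 pools) were SLC12A8, GPR158 and ITGA5, at distances of 0.43 to 0.49. Those nearest PLAUR were CEMIP at 0.03, FGF1 at 0.10 and ENO2 at 0.16. CEMIP, a hyaluronan-degrading protein, had differences of 1.31 against siCTR and 1.93 against NO. FGF1, a fibroblast growth factor, had 1.28 and 1.82, and ENO2, neuronal enolase, 1.43 and 1.95.

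Promoter sequence is shown for the 4 genes that were above both controls and have a window in the RefSeq promoter table (GRCh38.p14), so that called (PLAUR, MMP14) and uncalled (TIMP1, TIMP3) genes can be set side by side. Windows were matched for 5 of the 9 genes, PLAU being the fifth, and each runs from 250 bases before to 50 bases after the annotated start. They were searched on both strands for TGANTCA (bound by AP-1), GGGCGG (the GC box bound by SP1), CACGTG (an E-box) and the kappa-B consensus. Capitals mark AP-1 and GC box matches, and none of the matches overlap. The windows are chr19:43670120-43670419 (minus strand) for PLAUR, chr14:22836335-22836634 (plus) for MMP14, chrX:47582186-47582485 (plus) for TIMP1 and chr22:32801455-32801754 (plus) for TIMP3.
PLAUR: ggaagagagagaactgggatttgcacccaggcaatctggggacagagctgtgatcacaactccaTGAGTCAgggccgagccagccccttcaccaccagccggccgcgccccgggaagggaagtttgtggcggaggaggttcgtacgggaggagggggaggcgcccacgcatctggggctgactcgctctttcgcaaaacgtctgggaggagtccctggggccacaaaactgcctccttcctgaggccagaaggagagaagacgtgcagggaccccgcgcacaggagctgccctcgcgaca
MMP14: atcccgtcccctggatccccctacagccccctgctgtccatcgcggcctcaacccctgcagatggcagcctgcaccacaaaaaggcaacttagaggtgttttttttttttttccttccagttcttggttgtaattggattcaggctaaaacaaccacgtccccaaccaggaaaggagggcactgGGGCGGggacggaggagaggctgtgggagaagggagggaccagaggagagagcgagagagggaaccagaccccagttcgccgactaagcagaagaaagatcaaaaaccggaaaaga
TIMP1: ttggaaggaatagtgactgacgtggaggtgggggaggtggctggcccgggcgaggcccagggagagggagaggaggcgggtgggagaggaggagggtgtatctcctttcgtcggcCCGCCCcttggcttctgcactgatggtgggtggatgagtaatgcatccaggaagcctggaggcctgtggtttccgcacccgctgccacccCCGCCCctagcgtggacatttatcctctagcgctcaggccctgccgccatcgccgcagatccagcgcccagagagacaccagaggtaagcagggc
TIMP3: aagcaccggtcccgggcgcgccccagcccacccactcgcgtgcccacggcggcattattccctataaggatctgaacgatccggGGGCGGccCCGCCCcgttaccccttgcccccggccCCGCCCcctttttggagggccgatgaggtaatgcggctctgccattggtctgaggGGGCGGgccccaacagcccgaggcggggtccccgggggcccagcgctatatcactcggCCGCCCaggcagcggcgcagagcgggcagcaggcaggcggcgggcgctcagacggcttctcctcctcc

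PLAUR had 1 AP-1 match, which starts 186 bases before the start site, and no GC box. The AP-1 letters occur in 7.71% of the 35116 windows in the table. MMP14 had 1 GC box, TIMP1 had 2 and TIMP3 had 5, in letters found in 45.0% of windows. Neither the E-box (7.26% of windows) nor the kappa-B consensus (11.3%) was in any of the 4. A match of letters describes the sequence and is not a measured site. Only exact matches were searched, so near matches are unmarked, such as tgagtaa in the TIMP1 window. A window without a mark is therefore not shown to lack a site.

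Genes that act around these proteases were read from lists drawn up for the purpose, with earlier results of these data known. Each list is given by its counts beside the shares of all genes above. Of 19 other matrix metalloproteases 8 were measured, and 0 were called against both controls. Against siCTR alone 3 were called higher (MMP11, MMP17 and MMP28), and 0 against NO. MMP11 and MMP28 were dim, at 58.3 and 117.6 and at 32.1 and 78.5 on the siCTR arrays. MMP28 was also called lower in siCTR than in NO (-1.27), so its call goes with a low siCTR value. The medians of the list, in which MMP9 and MMP25 were dim too, were 0.70 (siCTR) and 0.64 (NO) on the log2 scale. MMP17, a protease tethered by a lipid anchor, gave 910 and 859 signal units in siPIR cells, 577 and 285 in siCTR cells, and 408 and 510 in NO cells, with differences of 1.11 and 0.95. MMP15, a further membrane type, differed by 0.65 and 0.77, and MMP8, the neutrophil collagenase, by 0.26 and 0.28. The collagenase MMP13 and the stromelysins MMP3 and MMP10 were not measured.

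Of 12 inhibitors and activators of metalloproteases 10 were measured, with 2 called higher and 1 called lower against both controls. FURIN, the proprotein convertase that cleaves the MT1-MMP precursor, gave 885 and 893 signal units in siPIR cells, 363 and 391 in siCTR cells, and 264 and 296 in NO cells. All siPIR arrays were above the controls, with log2 differences of 1.23 (1.17 to 1.29) against siCTR and 1.65 (1.56 to 1.74) against NO. TIMP4 was dim, at 262 and 190 in siPIR cells, 78.6 and 111 in siCTR cells, and 78.7 and 144 in NO cells, with differences of 1.21 (0.74 to 1.67) and 1.03 (0.38 to 1.67). The lower gene was SPOCK2, a matrix proteoglycan, at 3.3 and 10.0 in siPIR cells, 69.0 and 70.4 in siCTR cells, and 72.4 and 130 in NO cells. The siPIR arrays were far below the cut-off and the siCTR mean of 69.7 was just below it. SPOCK2 thus passed as measured only through the NO pool, at a mean of 101. The membrane-anchored inhibitor RECK differed by -0.12 against siCTR and 0.55 against NO, a sign that depends on the control. The list's medians were 0.21 and 0.54.

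Of 23 further genes of plasminogen activation 17 were measured and 0 passed the call against both controls. Their medians were 0.05 and 0.16. SERPINB2 and VTN were not analysed here. SERPINE2, protease nexin, an inhibitor of serine proteases, gave 43864 and 45518 signal units in siPIR cells, 40307 and 40829 in siCTR cells, and 38612 and 41580 in NO cells, differences of 0.14 and 0.16. PLGRKT, a plasminogen receptor, was lower by -0.61 and -0.76. The receptors IGF2R, which binds phosphomannosyl proteins and PLAUR, and VLDLR, which clears protease-inhibitor complexes, differed by 0.46 and 1.01 and by 0.49 and 0.91, with IGF2R called against NO alone.

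Of 23 ADAM and ADAMTS proteases 14 were measured, and ADAMTS10 was called higher than both controls (1.42 and 1.29), by a dim probe set that can bind other transcripts, while 0 were called lower. ADAMTS10 passed the cut-off only through the siPIR pool, at means of 168 in siPIR cells, 60.3 in siCTR cells and 65.3 in NO cells. The list's medians were 0.10 and 0.24. Of 18 cathepsins and other pericellular proteases 14 were measured, 0 were called higher than both controls and DPP4 was called lower (-1.88 and -1.82), at a mean of 17.1 signal units in siPIR cells, 75.1 in siCTR cells and 67.8 in NO cells. It passed the cut-off only through the siCTR pool, whose arrays were at 101 and 49.2, so this call comes with the filter and carries little weight. That list's medians were 0.40 and 0.45.

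AP-1 and ETS factors, which are known to act on the promoters of MMP1 and PLAUR, lay on both sides of 0. Of 22 listed 20 were measured, 0 were called higher than both controls and 1, ETS2, was called lower, with medians of 0.11 and 0.17. ETS2 gave 398 and 396 signal units in siPIR cells, 1007 and 893 in siCTR cells, and 1027 and 926 in NO cells, differences of -1.24 and -1.28. With arrays apart at any size, 7 of the 20 were above both controls and 6 below, beside 28.4% and 23.1% of all genes. ETS1 was among those below (-0.55 and -0.77). The AP-1 subunits named next were picked after their values were seen. FOSL1 was at 2388 and 2288 in siPIR cells, 1321 and 1522 in siCTR cells, and 1116 and 1229 in NO cells, differences of 0.72 and 0.99, short of a call. JUN differed by 0.83 and 0.39, JUND by 0.52 and 0.64, and FOS by -0.89 and -1.19.

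**Figure D4:**
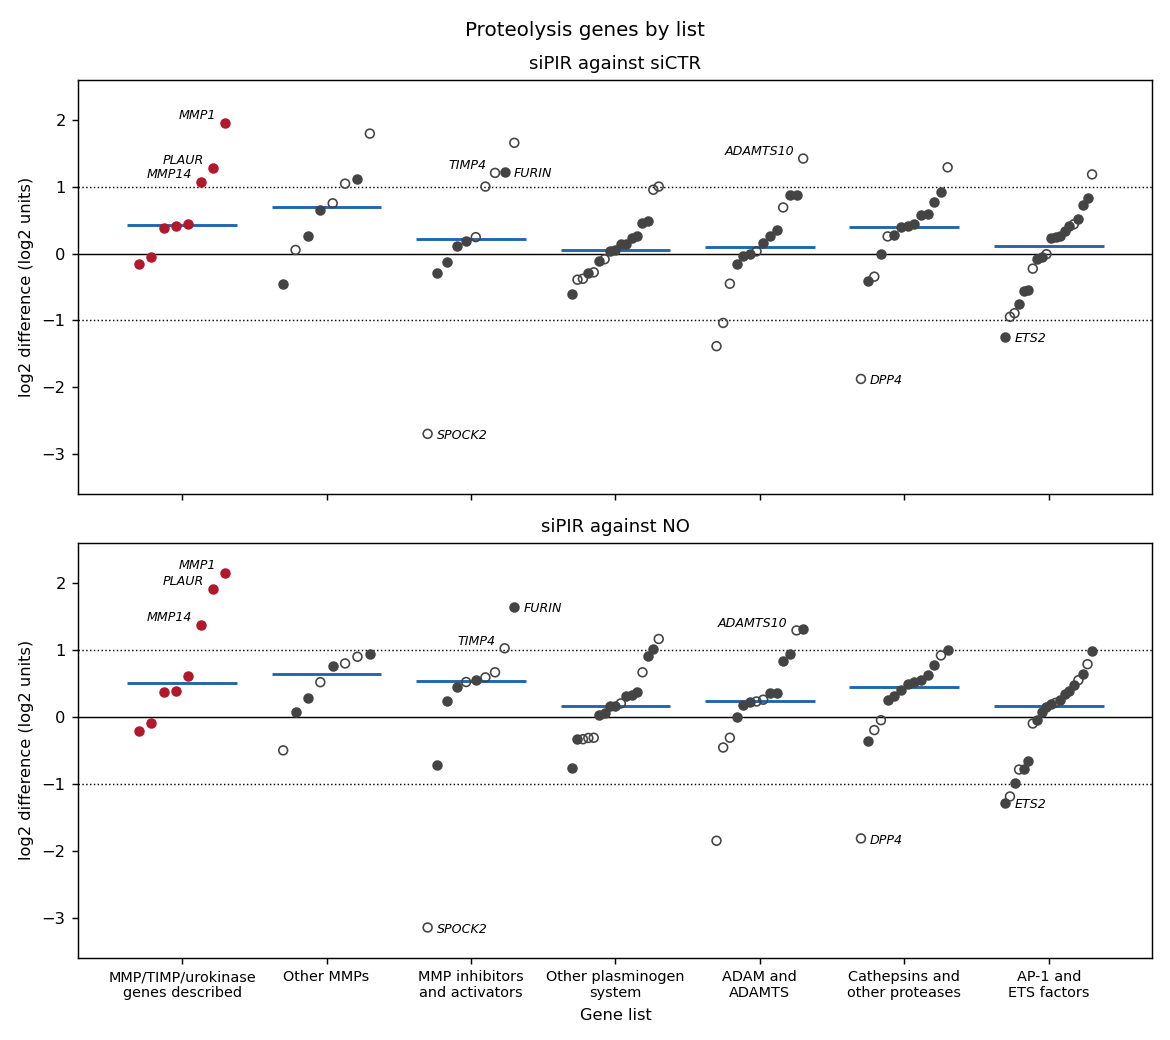
Log2 difference of pool means, siPIR against siCTR (top) and against NO (bottom), in log2 units, for the 8 measured genes (red) and the measured genes of 6 related lists (grey). Filled points are bright genes, open points are dim, blue lines are list medians, dotted lines mark 2-fold and names are given where a gene was called against both controls. FURIN is the 1 bright gene of the related lists called higher than both controls and ETS2 the 1 bright gene called lower.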

How the data were processed

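Probe set intensity on a linear scale was deposited by the authors, 1 value per array, and was made with GCOS, per the submitters' processing notes, with no version or settings stated there. The 2% trimmed mean of each array was 500, the pattern of global scaling, which would hide a change in total RNA per cell. All 6 columns were matched to samples by name and 0 were left over. Per the labels, the 2 arrays of a group share 1 RNA mixture, so they were averaged on the log2 scale.

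Values were taken as log2(value + 5.4), where the pseudocount is the 10th percentile over the 6 arrays. Of 54675 probe sets, 41097 were annotated with 1 gene and 1801 with several, which name none here. Symbols were matched through Entrez identifiers to RefSeq names for GRCh38.p14 (99.87% matched, 0 changed). The probe set with the highest mean stood for a gene. A gene was measured when a pool mean exceeded 70.2 (the median of all values), which left 13053 of 19775 genes, and bright above 458.4 (the 75th percentile).

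Calls are a rule of size and array separation, tried on simulated data for bright genes alone, and no p-values were computed. The simulated noise came from duplicate arrays and the planted changes all exceeded the call threshold. It therefore cannot show how pools vary or how a difference near the threshold is called. The 9 genes and the lists were chosen with earlier results of these data known. From each list, genes called against both controls were named, or else 3 bright genes with the largest smaller difference; other names were picked after their values were seen. Python 3.11.15, numpy 2.4.6 and pandas 2.3.3 were used. Alternatives changed the pseudocount, the probe set, the filter, the scaling, the call rule and the arrays used.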

Additional observations from a re-analysis of the deposited data

How the results depend on the processing

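No paired analysis was possible because the result comes from no test and the array numbers mark repeat hybridisations of 1 pool. MMP1 and MMP14 were called against both controls under every alternative run. PLAUR was called under all of them except without _x_at and _s_at probe sets, where 214866_at stood for it, its differences were 0.61 and 0.43, and 2 genes remained called of 6 measured. At 1.5-fold, PLAUR was also called between siCTR and NO (1 gene in place of 0) and TIMP1 against NO. With no filter on low values PLAU was called lower against siCTR, from signals of 40.8 or less. With each array left out in turn, 3 genes were called against siCTR, against NO and against both controls, and 0 between the controls. Of the 24 differences of single genes, 21 moved by more than the standard deviation of the array pairs under median-centring. With probe sets averaged 14 did so and under quantile normalization 13, and 0 of the called ones changed sign. MMP1, TIMP1 and PLAT have 1 probe set each, so averaging could not move their differences. Of the other differences, only that of MMP14 against siCTR stayed within the standard deviation of the array pairs when averaged. Filters cannot move the difference of a single gene. Leaving out an array cannot, by the arithmetic, move it by more than the standard deviation of its array pairs. Staying within that spread under these settings therefore shows nothing about stability. Among uncalled values, MMP2 turned to -0.13 against each control when its 3 probe sets were averaged, 1 of them below and 1 near the cut-off, TIMP2 to 0.09 against NO in the same way, and PLAUR to -0.18 between the controls without _x_at and _s_at probe sets. Between siCTR and NO, MMP2 turned to 0.0048 with probe sets averaged and 0.05 median-centred, and TIMP3 to -0.07 with probe sets averaged, -0.03 quantile normalized and -0.01 without 1 NO array. Median-centring gave a median of all genes of 0.12 for siPIR against NO (0.03 as deposited) and 0.13 for siCTR against NO (0.01), and the 3 calls stood. Dim genes (TIMP4, SPOCK2, ADAMTS10, DPP4, MMP11, MMP28) are limited by signal near the floor.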

Other observations

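Several other genes of the protease lists, among them an inhibitor and a protein without protease activity, lay above both controls without a call against each. They were picked here after their values were seen. CTSL and CTSV, given last with the bright cathepsins, did not lie above both. FAP, the surface protease fibroblast activation protein, gave 6689 and 5961 signal units in siPIR cells, 3231 and 3431 in siCTR cells, and 3166 and 3167 in NO cells, differences of 0.92 and 0.99. It is also in the fibroblast marker list. ADAMTS1, a secreted protease that cleaves proteoglycans, gave 6597 and 6063 in siPIR cells, 3333 and 3543 in siCTR cells, and 2599 and 2462 in NO cells, differences of 0.88 against siCTR and 1.32 against NO, where it was called. CST3, which encodes cystatin C, an inhibitor of cysteine cathepsins, differed by 0.78 and 0.77, with 10412 and 10638 signal units in siPIR cells, 6017 and 6255 in siCTR cells, and 6124 and 6210 in NO cells. ADAM23, a surface protein of the ADAM family without protease activity, differed by 0.88 and 0.94. Of the 6 bright cathepsins, CTSB, CTSD, CTSK and CTSZ differed by 0.27 to 0.58 against siCTR and 0.31 to 0.55 against NO. CTSL differed by -0.01 against siCTR, with overlapping arrays, and 0.26 against NO, and CTSV by -0.42 and -0.35.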
